A study of Mus musculus with 28 samples.

Results

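The regions described here were the wild-type Smchd1 binding sites of mouse neural stem cells at which neither Ctcf nor H3K4me3 was called in wild-type cells. A site was a summit of the authors' list called at 5e-3, the more permissive of their 2 Smchd1 lists, on an assembled chromosome. It was kept when no wild-type Ctcf summit (from untransduced cells or cells carrying a non-silencing hairpin) and no wild-type H3K4me3 summit lay within 1 kb. This rule kept 392 of 1105 sites (35.5%). Of the other 713 sites, 418 had wild-type Ctcf and 295 had H3K4me3 without Ctcf. The sites with neither mark were thus chosen by measured values, and the absence of these marks is not a result.

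The cells were grown from the brain of male E14.5 mouse embryos of mixed C57BL/6 and FVB/N background. Null cells were homozygous for the MommeD1 allele of Smchd1, and control cells were wild type at that gene. In all, 28 libraries in 14 groups were sequenced. Smchd1, H3K4me3 and H3K27me3 ChIP each had 2 null and 2 wild-type libraries, DNA captured with the methyl-CpG binding domain protein (MBD) had 3 of each genotype, and whole cell extract had 1 of each. Ctcf ChIP had 2 libraries each from null cells, wild-type cells with the non-silencing hairpin and untransduced wild-type cells, and 1 from each of 2 Ctcf hairpins in wild-type cells. The deposited lists pool the libraries of a group, so no value below has a replicate error and no difference was tested across samples. Intervals are exact 95% binomial (Clopper-Pearson) intervals. They cover counting error only and treat neighbouring summits as independent, which they are not. Depth per library is unknown. In the wild-type H3K4me3 list, 21 of 22 neural stem cell markers had a summit within 2 kb of a gene end, among them Sox2, Nes and Pax6, against 1 of 10 glial, 1 of 10 germ cell, 1 of 10 blood and endothelial, 3 of 10 mesenchymal and epithelial and 10 of 15 neuronal markers.

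Smchd1 is a large protein related to the structural maintenance of chromosomes family, with a hinge domain that binds nucleic acid and an ATPase domain. It is known for stable silencing of the inactive X chromosome and of autosomal gene clusters, including imprinted genes, clustered protocadherins and Hox genes. Ctcf binds a defined DNA motif at insulators and loop anchors. H3K4me3 marks active and poised promoters, and H3K27me3 is laid down by Polycomb repressive complex 2 at silent developmental genes.

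An annotated promoter window is here 250 bases before to 50 bases after a transcription start. A site with Ctcf (418 in all) lay in 34 of 32851 windows, and a site with H3K4me3 (295 in all) in 65. How many sites of these groups lay in a window was not counted. The rule removed sites near wild-type H3K4me3, which marks promoters, so the promoter counts are a description. Of the 392 sites with neither mark, 21 lay inside a window, and these 21 sites fell in 22 windows. A set of 6 is printed because it spans what these promoters looked like: dense in CpG with H3K27me3 nearby (Nkx6-1, Hoxd9), with H3K4me3 nearby in the null list (Irx2), a Hox promoter with fewer CpG than Hoxd9 (Hoxa7), a neuronal gene (Cntnap5b) and a gene in an array (LOC115488002). Sequences are from RefSeq on GRCm38.p6, the assembly that mm10 names, 5′ to 3′ on the strand of the gene. The 31 capital letters are the summit base and the 15 bases on each side.
Nkx6-1, chr5:101664662-101664961, minus strand: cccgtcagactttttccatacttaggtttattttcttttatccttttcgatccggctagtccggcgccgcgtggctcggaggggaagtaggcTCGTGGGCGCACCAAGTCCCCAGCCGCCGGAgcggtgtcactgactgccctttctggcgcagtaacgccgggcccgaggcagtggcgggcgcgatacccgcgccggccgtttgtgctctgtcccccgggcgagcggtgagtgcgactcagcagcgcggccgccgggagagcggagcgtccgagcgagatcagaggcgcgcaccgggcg
Hoxd9, chr2:74697513-74697812, plus strand: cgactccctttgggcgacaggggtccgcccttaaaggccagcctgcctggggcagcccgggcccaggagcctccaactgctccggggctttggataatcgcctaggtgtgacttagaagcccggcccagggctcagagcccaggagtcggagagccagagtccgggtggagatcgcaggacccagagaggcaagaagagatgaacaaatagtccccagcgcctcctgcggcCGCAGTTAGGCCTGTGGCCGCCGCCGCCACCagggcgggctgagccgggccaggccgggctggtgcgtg
Irx2, chr13:72628570-72628869, plus strand: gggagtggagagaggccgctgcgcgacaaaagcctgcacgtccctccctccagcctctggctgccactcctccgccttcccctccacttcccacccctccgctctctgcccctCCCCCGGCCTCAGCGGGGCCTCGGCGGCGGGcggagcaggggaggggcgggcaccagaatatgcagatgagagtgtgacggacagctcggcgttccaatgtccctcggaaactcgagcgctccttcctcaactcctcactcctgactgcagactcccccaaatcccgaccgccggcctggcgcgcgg
Hoxa7, chr6:52218524-52218823, minus strand: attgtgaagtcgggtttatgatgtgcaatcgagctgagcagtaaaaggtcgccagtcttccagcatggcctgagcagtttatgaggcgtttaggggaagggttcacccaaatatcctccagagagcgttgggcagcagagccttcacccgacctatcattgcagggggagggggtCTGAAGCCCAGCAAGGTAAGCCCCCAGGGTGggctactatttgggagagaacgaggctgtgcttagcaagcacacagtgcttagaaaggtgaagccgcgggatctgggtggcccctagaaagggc
Cntnap5b, chr1:99772151-99772450, plus strand: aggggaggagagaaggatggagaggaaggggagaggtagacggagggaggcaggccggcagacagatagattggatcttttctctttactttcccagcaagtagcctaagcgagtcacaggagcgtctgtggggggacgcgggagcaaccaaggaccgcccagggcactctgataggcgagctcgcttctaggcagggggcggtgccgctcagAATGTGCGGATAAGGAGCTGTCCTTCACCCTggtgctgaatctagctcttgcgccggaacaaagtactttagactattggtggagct
LOC115488002, chr12:18648740-18649039, plus strand: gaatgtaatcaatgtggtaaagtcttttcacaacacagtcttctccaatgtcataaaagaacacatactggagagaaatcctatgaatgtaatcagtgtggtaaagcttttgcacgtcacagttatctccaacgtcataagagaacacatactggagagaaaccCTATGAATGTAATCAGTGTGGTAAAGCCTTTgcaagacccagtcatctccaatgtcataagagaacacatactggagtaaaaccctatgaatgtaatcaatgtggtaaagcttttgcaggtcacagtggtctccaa

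The promoters with a site were mostly rich in CpG. The window of Nkx6-1, a homeobox factor of ventral neural tube progenitors, held 40 CpG, a number reached by 3.91% of all promoters. Irx2, an Iroquois homeobox factor, held 25 CpG, Hoxd9 held 20, Cntnap5b, a contactin-associated cell adhesion protein, held 14, Hoxa7 held 9 and LOC115488002 held 2. Over the 22 windows the median was 20 CpG (range 2 to 40) and the median GC content 62.8%, against a median of 23 CpG in the 34 promoters with a Ctcf-marked site, 25 CpG in the 65 promoters with an H3K4me3-marked site and 7 CpG and 52.7% GC in all promoters. In 19 of the 22 windows the CpG number was at or above the median of all promoters. The letters AGGNGGC, a short core of the known Ctcf motif searched on both strands, occurred in 7 of the 22 windows (31.8%), among them those of Ptprs, Hoxd9, Tshz3 and Cntnap5b. They occurred in 22 of 34 windows with a Ctcf-marked site (64.7%), in 30 of 65 with an H3K4me3-marked site (46.2%) and in 29.4% of all windows. Ctcf calls were used by the rule and these letters were chosen after a longer form had been searched, so the shares are a description only.

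The LOC115488002 window held a repeat, searched for after its sequence had been seen. The longest runs of letters present 3 times, AGAACACATACTGGAG and CCTATGAATGTAATCA, are 16 bases long, and the copies of each start 84 bases apart. As background, 84 bases is the length of DNA that encodes one finger and linker of a C2H2 zinc finger array, a fact that gives this gene, which carries no name of its own in the annotation, no role. On either strand, AGAACACATACTGGAG occurred in 3 of 32851 promoter windows, those of LOC115488002, Gm38704 and Gm19792, and CCTATGAATGTAATCA in 2, those of LOC115488002 and Gm38704. Gm38704, also on chromosome 12, had a Smchd1 site with neither mark inside the gene, with a score of 3.12.

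The score of a summit is the authors' own, from MACS2, and stands for −log10 of either a p-value or a q-value. The 392 sites had a median score of 4.43 (quartiles 3.23 and 5.99, range 2.32 to 24.0), against 4.97 at sites with Ctcf and 3.76 at sites with H3K4me3, and the 3 distributions overlapped over nearly their whole length. Only 177 distinct scores occurred among the 392 sites, and 24 sites shared the score 4.43, so small differences in rank carry little. In the authors' stricter list, called at 5e-4 on the same libraries, 130 of the 392 sites (33.2%, interval 28.5 to 38.1%) recurred at the same base, against 41.1% of sites with Ctcf, 25.8% of sites with H3K4me3 and 34.2% of all 1105 sites. Of the 392 sites, 291 scored at least 3.36, the lowest score of the stricter list, yet 151 of these had no stricter summit within 1 kb. The highest of those 151 scored 11.1 (near Tmem154). A high score therefore did not place a site in the stricter list, and membership of that list is given beside the values that follow.

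The top site scored 24.0 and lay at position 72568728 of chromosome 15, 20114 bp from Kcnk9, which encodes a two-pore potassium channel and is imprinted in brain. A further site, 967 bp from Kcnk9, scored 5.95. The next, at position 39806893 of chromosome 2, scored 23.5. Its nearest coding gene, Ppp6c, was 580.5 kb away, and an MBD summit lay 191 bp away in the list named D1 and 177 bp away in the list named WT. The third, at position 55607948 of chromosome 11, scored 20.8 inside Glra1, a glycine receptor subunit, 250 bp from a gene end. Scores then dropped to 14.0 inside Iqsec3, an exchange factor of inhibitory synapses, 13.1 near Ptpn11, a tyrosine phosphatase of growth factor signalling, 12.9 near Prl2c3, a prolactin family gene, 12.8 inside Hoxa10 and 12.5 inside Camta1, a calmodulin-binding transcription activator. Camta1 held 2 further sites, with scores of 7.54 and 7.00. All 8 of these top sites were in the stricter list. The other sites with scores from 10.2 to 11.8 lay nearest to LOC115488002, Gm19428, Tcerg1l, Gm17353, Tmem154, Cntnap5b, Gm40862, Gm38699, Prok2, Wac, 2410141K09Rik and Tbx3.

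The share of sites inside coding genes lay between those of the Ctcf-marked and the H3K4me3-marked sites. Sites with neither mark were inside a coding gene in 182 of 392 cases (46.4%, interval 41.4 to 51.5%), against 129 of 418 sites with Ctcf (30.9%, interval 26.5 to 35.5%), 197 of 295 with H3K4me3 (66.8%, interval 61.1 to 72.1%) and 46% of all 1105 sites. A coding gene end lay within 2 kb of 109 sites (27.8%, interval 23.4 to 32.5%), against 23.0% of sites with Ctcf, 72.9% of sites with H3K4me3 and 38% of all. H3K4me3 itself marks gene starts and was used by the rule, so the difference from the H3K4me3 group is a description. Of the 392 sites, 91 (23.2%) were over 50 kb from any coding gene, against 25.8% of sites with Ctcf and 4.41% of sites with H3K4me3. These positions are plotted beside the marks that the rule did not use.

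**Figure D1:**
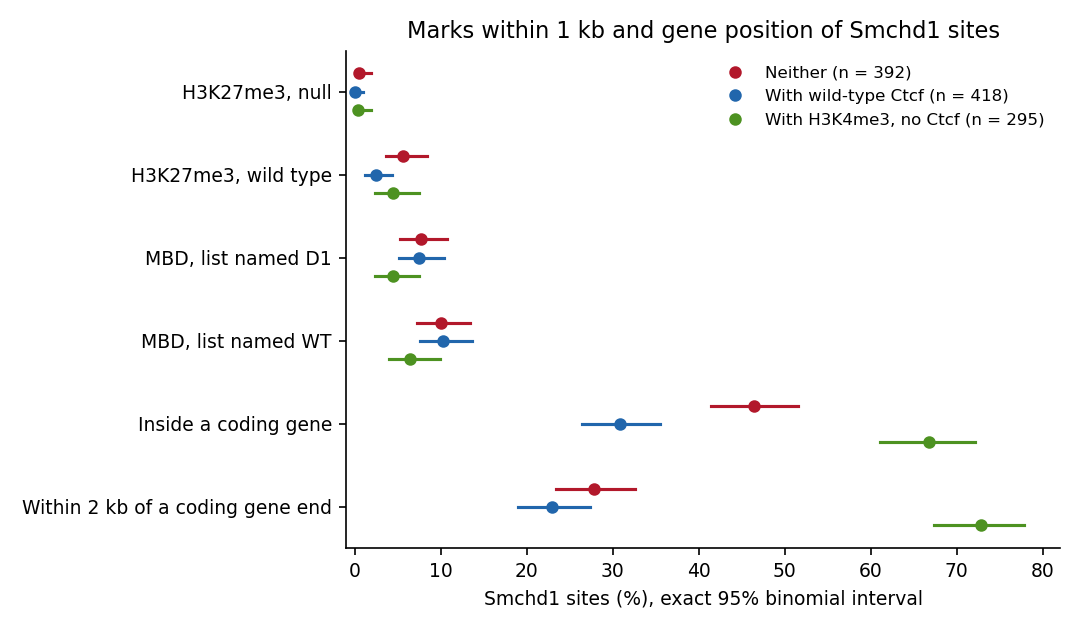
Percent of Smchd1 sites with a summit of each list within 1 kb, or in each gene position, for sites with neither mark (n = 392), with wild-type Ctcf (n = 418) and with H3K4me3 without Ctcf (n = 295). Points are shares and bars exact 95% binomial intervals (counting error only). The intervals of the 3 groups overlap for H3K27me3 and MBD. Within 2 kb of a coding gene end lay 27.8% of sites with neither mark and 23.0% of sites with Ctcf, with overlapping intervals, and 72.9% of sites with H3K4me3.

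The 392 sites were unevenly spread over chromosomes. Chromosome 13 held 42 of its 91 Smchd1 sites, chromosome 4 held 41 of 77, chromosome 2 held 34 of 67 and chromosome 12 held 30 of 64. Chromosome 17, by contrast, held 6 of 46, chromosome 8 held 9 of 43 and chromosome 14 held 13 of 60. The X chromosome of these male cells held 4 of 9. Another site with neither mark lay within 1 kb of 46 sites, within 5 kb of 76 and within 100 kb of 145 (37.0%). Counting a run of at least 4 sites with gaps of at most 100 kb as a gathering, 7 gatherings held 52 sites. These were HoxD with 12, HoxA with 11, HoxC with 8, HoxB with 7, a pair of 5-site runs on chromosome 12 (LOC115488002 and Gm9241) and chromosome 13 (Gm10324 and Gm45965), and Nkx6-1 with 4. Spacing and gatherings were computed for the 392 sites only. Whether the other Smchd1 sites lie as close together was not tested.

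**Figure D2:**
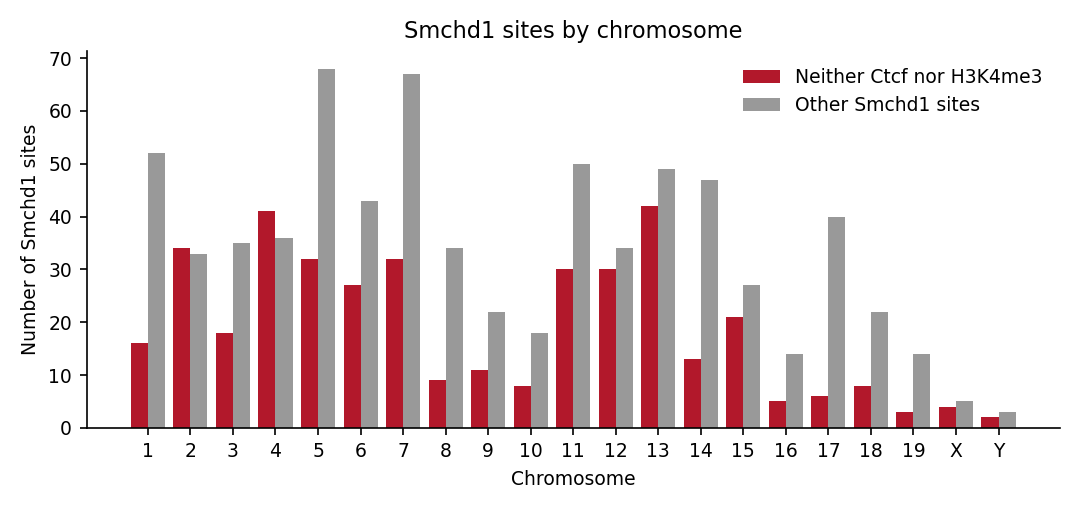
Number of Smchd1 sites per chromosome, with sites that have neither Ctcf nor H3K4me3 in red and all other Smchd1 sites in grey. Sites with neither mark outnumber the others on chromosomes 2 (34 and 33) and 4 (41 and 36) and are fewest, among chromosomes with over 40 sites in all, on 17 (6 and 40).

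The 4 Hox clusters held the gatherings with the most sites. Hox genes encode homeobox factors that set position along the body axis, and they are silent in most forebrain cells. Within 20 kb of a Hox gene lay 38 of the 392 sites (9.69%, interval 6.95 to 13.1%), against 18 of 418 sites with Ctcf (4.31%, interval 2.57 to 6.72%), 2 of 295 with H3K4me3 (0.678%, interval 0.0822 to 2.43%) and 5.25% of all sites. The 58 sites in 4 clusters are far from independent, so these intervals are too narrow. Ctcf and H3K4me3 were used by the rule, and HoxB, HoxC and HoxD held 0 wild-type H3K4me3 summits. The low share of the H3K4me3 group was thus largely set by the rule, and the differences are a description. Of the 41 genes on the Hox lists, Evx1 and Evx2 included, 36 had at least 1 of the 38 sites within 20 kb. The median score of the 38 was 3.64, against 4.43 elsewhere, and 9 of the 38 were in the stricter list.

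The 4 clusters differed in score and in marks. In HoxA, 11 of 21 Smchd1 sites had neither mark, with a median score of 3.53. The score of 12.8 inside Hoxa10 stood far above the other 10, which ran from 2.55 to 4.23 near Hoxa3, Hoxa4, Hoxa5, Hoxa7 and their neighbours. It was also the sole HoxA site of this kind in the stricter list. HoxA also held 4 wild-type H3K4me3 summits, while HoxB, HoxC and HoxD held 0. In HoxB, 7 of 9 sites had neither mark and scores were higher, with a median of 5.27 and a top of 9.09 inside Hoxb6. In that cluster 4 of 7 were in the stricter list. In HoxC, 8 of 10 sites had neither mark, the median was 3.01, the top was 6.46 next to Hoxc5, and 0 of 8 were in the stricter list. In HoxD, 12 of 18 had neither mark, with a median of 3.60, a top of 7.15 near Hoxd11 and 4 of 12 in the stricter list. The HoxD sites ran from Evx2, a homeobox gene at the end of the cluster, to Hoxd3.

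**Figure D3:**
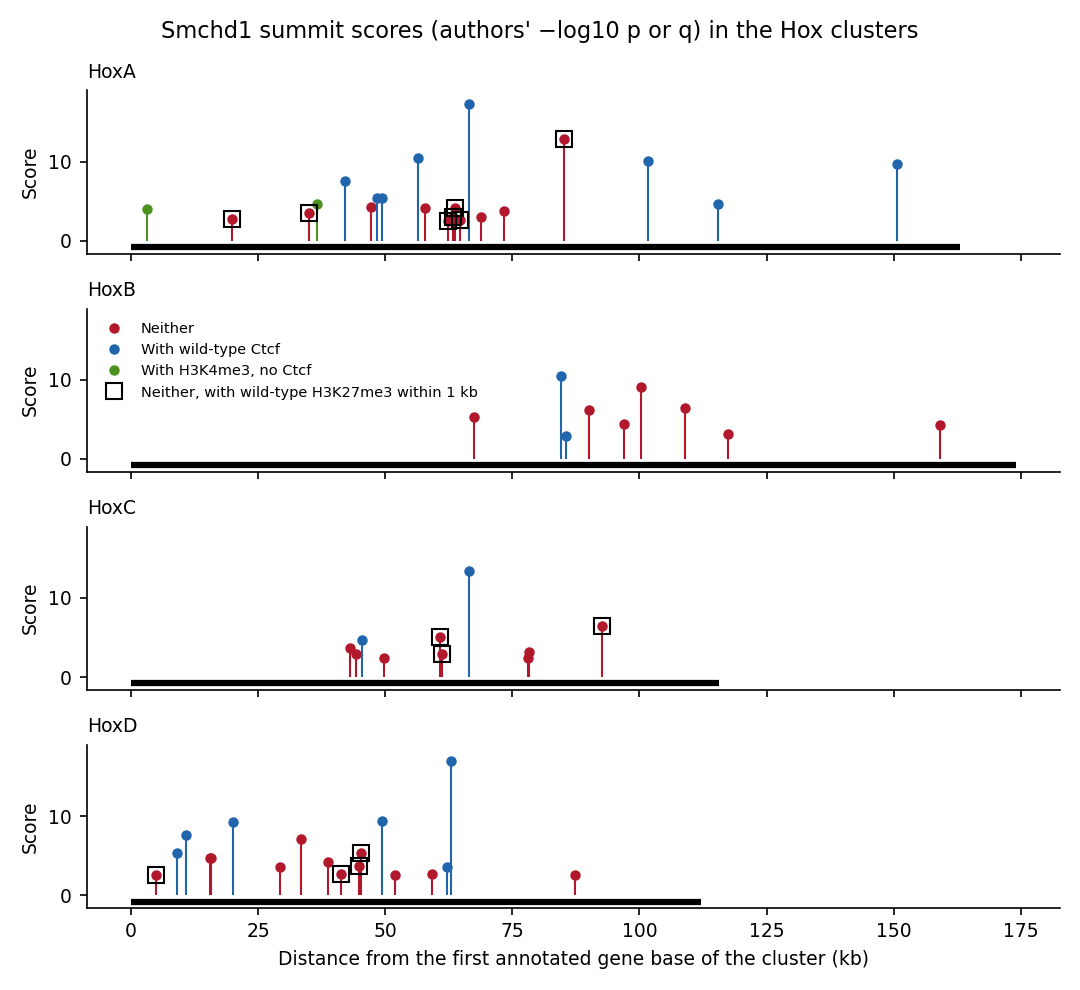
Score of every Smchd1 site within 20 kb of the genes of each Hox cluster against distance in kb from the first annotated gene base (black bar, the genes of the cluster). Red points are sites with neither mark, blue those with wild-type Ctcf, green those with H3K4me3 without Ctcf, and squares mark sites with neither mark and wild-type H3K27me3 within 1 kb. Such squares number 7 in HoxA, 4 in HoxD, 3 in HoxC and 0 in HoxB. Squares were not drawn for the other groups, though some of their sites also had wild-type H3K27me3 within 1 kb. The closest were at 138 bp (Ctcf, HoxA), 259 bp (H3K4me3, HoxA) and 728 bp (Ctcf, HoxD).

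H3K27me3 was called at few of these sites, and most of those calls were at developmental genes. A null H3K27me3 summit lay within 1 kb of 2 of the 392 sites (0.510%, interval 0.0618 to 1.83%), where all 1105 sites gave 0.271%. A wild-type summit lay within 1 kb of 22 (5.61%, interval 3.55 to 8.37%), where all sites gave 4.07%. That share was 2.53% with a limit of 5 kb in the choice of sites and 11.5% when neighbours within 5 kb were counted. With Smchd1 sites within 1 kb merged it was 4.11% (15 of 365), and with the list called at 5e-4 it was 4.32% (6 of 139). Both were close to the 4.07% of all sites. The null share was 0% with a limit of 2 kb or 5 kb and 4.85% for neighbours within 5 kb. Sites with Ctcf had wild-type H3K27me3 in 2.39% of cases and sites with H3K4me3 in 4.41%, and the 3 intervals overlapped. The windows within 1 kb of wild-type H3K27me3 summits covered 0.0433% of the chromosome span, here from the first to the last summit of the 11 lists on each chromosome. The null list was far shorter than the wild-type one (77 and 732 summits), so the 2 counts do not compare the genotypes. A list length alone shows no change in the mark.

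Of the 22 sites with wild-type H3K27me3, 14 were in Hox clusters. The other 8 included sites near Nkx6-1 (3 sites), Tfap2a, a neural crest transcription factor (2 sites), and Irx1, a partner of Irx2 in the same Iroquois cluster (2 sites). The median distance to the H3K27me3 summit was 365.5 bp, and these summits were weak, with scores of 3.49 to 6.02, of which 9 of 22 were at least 5. The closest lay 26 bp from a site near Hoxa7, 29 bp from one in Hoxa4 and 44 bp from one in Hoxc9. The highest Smchd1 score among the 22 was the 12.8 inside Hoxa10, with its H3K27me3 summit 900 bp away. In the null list, the 2 sites were in HoxA, 51 bp from a summit at Hoxa5 and 450 bp from a summit at Hoxa7, and the site at Hoxa7 had wild-type H3K27me3 too. Of the 38 Hox sites, 24 had no wild-type H3K27me3 within 1 kb, but in HoxA all 11 and in HoxD all 12 had one within 5 kb. In HoxB that held for 1 of 7 and in HoxC for 3 of 8. HoxA and HoxD held 47 and 28 wild-type H3K27me3 summits, against 2 in HoxB and 15 in HoxC. Ctcf-marked sites lay 138 to 10550 bp from such a summit in HoxA and 728 to 2467 bp in HoxD. The closeness is thus not particular to sites with neither mark.

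Most of the other developmental transcription factors with a site had a single one. Of 63 such genes on the list, 9 had a site with neither mark within 20 kb, 13 sites in all (3.32%), against 4.07% of sites with Ctcf, 3.05% of sites with H3K4me3 and 3.53% of all. Nkx6-1 had 4, with scores of 2.55, 3.67, 4.15 and 4.94, all inside the gene or within 1074 bp of it. Tbx3, a T-box factor, had the highest scoring site of the list, 10.2 at position 119670694 of chromosome 5. A further site 28.3 kb from Tbx3 scored 9.80. Pax3 (4.82), Lhx5 (3.53), Pax7 (3.46), Nkx2-1 (3.02), Wt1 (2.69) and Gata6 (2.42), each a regulator of embryonic patterning or organ formation, had 1 each. Irx1 and Irx2, not on that list and chosen after their values were seen, had 3 sites each over 669 kb of chromosome 13. All 6 Smchd1 sites of that stretch had neither mark, and their scores ran from 2.55 to 5.15.

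Sites at neuronal marker genes were few. Within 20 kb of a neuronal marker lay 6 of the 392 sites (1.53%), against 0.478% of sites with Ctcf, 0 of 295 sites with H3K4me3 (upper limit 1.24%) and 0.724% of all. All 6 belonged to 2 genes. Rbfox3, the splicing factor detected as NeuN, had 4 sites inside the gene, scoring 9.09, 4.79, 4.79 and 4.42. Slc17a6, a vesicular glutamate transporter, had 1 at its start with 8.32 and 1 at 7.21 kb with 6.17. All 6 were in the stricter list. Potassium channel genes had 5 sites (1.28%, all sites 0.814%): besides Kcnk9 these were near Kcnh7 (3.56), Kcnj6 (3.12), Kcnk12 (3.12) and Kcna1 (3.01). GABA and glycine receptor genes had 3 (0.765%, all sites 0.543%), among them those at Glra1 and Gabrb2 (6.17). Other lists had shares below that of all sites: synaptic adhesion genes had 3 sites (0.765%, all sites 1.18%), cadherin genes outside the clusters 1 (0.255%, all sites 0.814%), sodium and calcium channel genes 1 (0.255%, all sites 0.271%) and tRNA genes 2 (0.510%, all sites 0.724%). Counts this small differ from their backgrounds by a few sites. The sodium and calcium channel site stood near Cacng3 (8.32), an AMPA receptor and calcium channel subunit. The Snrpn cluster of imprinted genes had 2 sites (0.510%, all sites 0.724%), near Magel2 (7.85) and Snrpn (6.61). Other imprinted genes had 1 (0.255%, all sites 0.362%), clustered protocadherins 1 (0.255%, all sites 0.271%) and mesenchymal and epithelial markers 1 (0.255%, all sites 0.181%). The top site, 20114 bp from Kcnk9, was just past the 20 kb limit and is in neither the imprinted nor the potassium channel count. Lists of neural stem cell, glial, germ cell, blood and endothelial, interferon, glutamate receptor and Smchd1 partner genes had 0 sites with neither mark within 20 kb. The first 4 of these lists had 0 of all 1105 sites too, and the other 3 had 2, 4 and 4 of 1105, so these zeros are close to the background.

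Zfp genes encode zinc finger proteins, and many lie in arrays. Within 20 kb of a Zfp gene lay 14 of the 392 sites (3.57%, interval 1.97 to 5.92%), against 3 of 418 with Ctcf (0.718%), 15 of 295 with H3K4me3 (5.08%) and 2.9% of all. On chromosome 13 from 65 to 67 Mb, 17 of 22 Smchd1 sites had neither mark, 2 had Ctcf and 3 had H3K4me3. That window held 1.99% of all Smchd1 sites and was named in the choice of regions, so its count is a description. It held 6 wild-type H3K4me3 summits, and 2 (untransduced) and 6 (non-silencing hairpin) wild-type Ctcf summits. The means over the chromosome span were 17.6, 6.23 and 15.4 per 2 Mb, so the window was poor in the marks used by the rule. It holds 84 annotated genes, of which 24 are coding and 40 pseudogenes. Of the 24 coding genes, 2 are Zfp genes and 13 have only predicted names.

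The 17 sites on chromosome 13 had scores from 2.55 to 11.8, with a median of 6.13, above the 4.43 of all 392, and 9 were in the stricter list. Along the window the first site scored 11.8 in Gm10139, annotated as a miscellaneous RNA, and had a second at 913 bp with 5.90. Gm53057 held 2 sites (6.17 and 2.55), Gm17353 held 1 of 11.3 and Gm10324 held 1 of 3.87. In Gm45965 and the pseudogene Gm17514, 3 sites 367 and 471 bp apart scored 6.13, 6.45 and 6.24. Further along, 2410141K09Rik held 1 of 10.3, Zfp640 had 2 sites 299 bp apart (8.87 and 4.33) and Gm10323 had 1 of 6.17. Of the 17, 14 lay in an annotated gene, 11 of these in a coding gene. The median spacing was 22.1 kb and the widest 226.9 kb, while 5 of 16 gaps were under 1 kb. Joining sites within 1 kb left 12. Copies of a family share sequence, reads can map to more than 1 copy, and the sources used here give no rule for such reads, so how many copies were bound cannot be read from these summits.

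The chromosome 13 window held 0 H3K27me3 summits in either list. The mean over the chromosome span was 0.0579 (null) and 0.550 (wild type) per 2 Mb, so a count of 0 is near the background. A null Ctcf summit lay near 1 of the 17 sites, 249 bp from the site in Gm17353, and a null H3K4me3 summit near 0. The window held 65 MBD summits in the list named D1 and 84 in the list named WT, below the genome means of 95.2 and 117 per 2 Mb, and they lay within 1 kb of 2 and 1 of the 17 sites. The median distance from a site to a summit of the list named WT was 17.9 kb.

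On chromosome 4 from 144 to 149 Mb and chromosome 12 from 18 to 25 Mb, windows chosen after their values were seen, most Smchd1 sites likewise had neither mark. Of 17 Smchd1 sites in the chromosome 4 window 15 had neither mark, with scores from 2.62 to 8.13 and a median of 4.12, and 3 were in the stricter list. They lay at Zfp984 (8.13 and 5.34), Zfp981 and Zfp993 (7.37 and 3.76), Zfp534 (4.70), Zfp988 and Zfp978 (4.12 and 2.85) and others, in a window where 16 of 67 coding genes are Zfp genes. In the chromosome 12 window, 17 of 19 sites had neither mark, with scores from 3.04 to 11.8 and a median of 5.85, and 5 were in the stricter list. Here 1 of 47 coding genes, Zfp996, is a Zfp gene and 31 have only predicted names. Wild-type H3K4me3 summits numbered 36 in each window, where the mean was 17.6 per 2 Mb. Untransduced and non-silencing Ctcf summits numbered 16 and 44 on chromosome 4 and 12 and 25 on chromosome 12. Their means were 6.23 and 15.4 per 2 Mb. Both windows held 0 H3K27me3 summits in either list. The mean was 0.0579 (null) and 0.550 (wild type) per 2 Mb, so few would be present in windows of 5 and 7 Mb, and these zeros are near the background. MBD lay near 3 of the 17 sites on chromosome 12 and 0 of the 15 on chromosome 4, in both MBD lists.

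**Figure D4:**
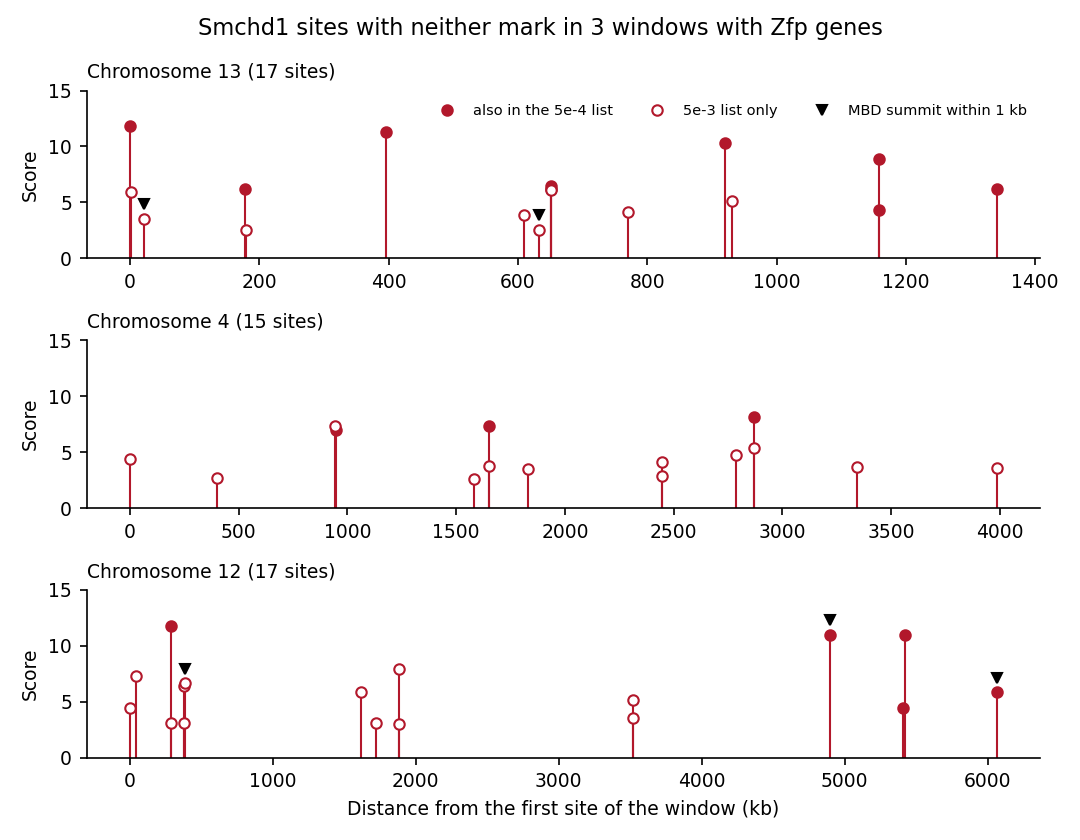
Score of each Smchd1 site with neither mark in the windows on chromosomes 13 (17 sites), 4 (15 sites) and 12 (17 sites) against distance in kb from the first such site. Filled points are also in the list called at 5e-4, open points only in the list called at 5e-3, and black triangles mark an MBD summit of either list within 1 kb. Some sites come as close pairs, and the chromosome 13 window has the most filled points, 9 of 17.

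Receptor genes of the nose, which lie in large arrays, had sites over a wide range of scores. Within 20 kb of a vomeronasal receptor gene lay 13 of the 392 sites (3.32%, scores from 2.62 to 11.3, median 5.90), against 1.44% of sites with Ctcf, 1.36% of sites with H3K4me3 and 2.08% of all. Several of the 13 stand in the windows on chromosomes 13 and 4, beside the pseudogenes Vmn2r-ps99 (11.3), Vmn2r-ps106 (8.87) and Vmn2r-ps16 (7.37), and the others include Vmn2r52 (6.68), Vmn1r200 (5.90) and Vmn1r61 (5.15). Near odorant receptor genes lay 9 sites (2.30%, median score 4.43), against 1.91% of sites with Ctcf, 0.678% of sites with H3K4me3 and 1.72% of all, with the highest scores near Olfr498 (7.19) and Olfr1066 (6.48).

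DNA methylation, read by MBD capture, was called at about the share of sites that the lists would cover anywhere. The 2 MBD lists are called by their names because the labels attach them to the opposite genotypes, and no genotype direction is drawn. A summit of the list named D1 lay within 1 kb of 30 of the 392 sites (7.65%, interval 5.22 to 10.7%; all sites 6.7%), and one of the list named WT within 1 kb of 39 (9.95%, interval 7.17 to 13.3%; all sites 9.14%). The windows within 1 kb of those summits covered 8.44% and 10.3% of the chromosome span. Sites with Ctcf had 7.42% and 10.3%, and sites with H3K4me3 had 4.41% and 6.44%. Both lists marked 29 sites, the list named D1 alone 1 and the list named WT alone 10. None of the 40 sites with MBD in either list had wild-type H3K27me3 within 1 kb, and none was in a Hox cluster. Of all 392 sites, 5.61% had wild-type H3K27me3 and 9.69% lay within 20 kb of a Hox gene. At these shares few would be among 40 sites, and whether the zeros differ from that was not tested. The 40 sites lay a median of 17.9 kb from a coding gene, against 440.5 bp for all 392. The strongest was the site of score 23.5 on chromosome 2, beside MBD summits of score 38.9 (list named D1) and 48.3 (list named WT). An MBD summit near a site in Begain, a synaptic scaffold partner, scored 39.4 and 71.8 in the same order.

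Null lists of Ctcf and H3K4me3 were called at a small set of the sites where the wild-type lists had no summit. The rule bars wild-type summits and not null ones, so a null summit here is by construction absent from the wild-type list within 1 kb. A null H3K4me3 summit lay within 1 kb of 31 sites (7.91%, interval 5.44 to 11.0%), and of 14.6% of the 432 sites kept with a limit of 500 bp in place of 1 kb. Of the 305 Ctcf-marked sites that also lacked wild-type H3K4me3, 10 had one (3.28%, interval 1.58 to 5.95%). Of all 1105 sites, most of which were not so selected, 38.6% had one. A null Ctcf summit lay within 1 kb of 37 sites (9.44%, interval 6.73 to 12.8%), against 13 of 295 H3K4me3-marked sites that lacked wild-type Ctcf (4.41%, interval 2.37 to 7.42%) and 28.1% of all. In the whole lists, 1897 of 24201 null H3K4me3 summits (7.84%) and 2530 of 11920 null Ctcf summits (21.2%) had no wild-type summit within 1 kb.

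Null Ctcf summits lay closer to the Smchd1 summits than null H3K4me3 summits did. The median distance was 30 bp for null Ctcf, with 31 of 37 within 50 bp, and 286 bp for null H3K4me3, with 2 of 31 within 50 bp. For null Ctcf, the nearest wild-type Ctcf summit was a median of 202 kb away, over 100 kb away at 24 sites and within 5 kb at 2. For null H3K4me3, the wild-type summit was a median of 113 kb away, over 100 kb at 16 sites and within 5 kb at 8. Those 8 included the highest null H3K4me3 score, at Ptprs (59.8, wild type 1.84 kb away), and that at Tmem178b (30.8, 1.26 kb), where both genotypes had the mark at nearby bases.

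**Figure D5:**
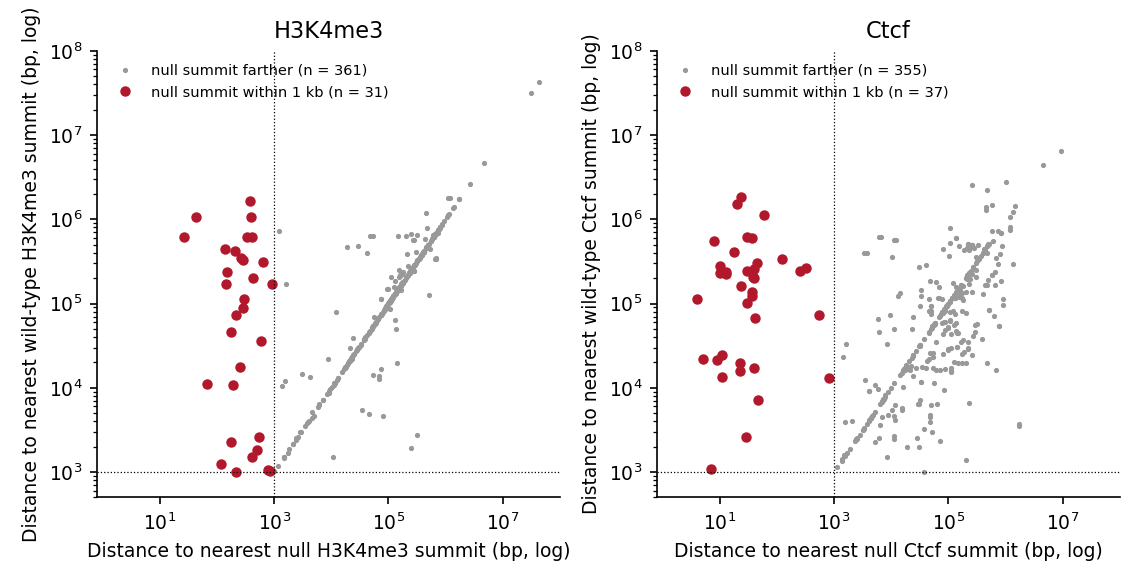
Distance in bp (log axes) from each of the 392 sites to the nearest null summit (x) and nearest wild-type summit (y), for H3K4me3 on the left and Ctcf on the right. Red points have a null summit within 1 kb (31 and 37 sites), and dotted lines mark 1 kb. Most other sites lie near the diagonal for H3K4me3, where both lists had a summit at a similar distance, while red Ctcf points stand mostly under 50 bp on the x axis and over 100 kb on the y axis.

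Several null H3K4me3 summits lay far from any wild-type H3K4me3 summit. Inside Ralyl, an RNA-binding protein gene, a null summit of score 12.99 lay 42 bp from the Smchd1 site of score 10.1, with the nearest wild-type H3K4me3 1062 kb away. Near Gm51464, 3 sites had null summits with scores of 14.3 or 25.4 and wild-type H3K4me3 at least 610.9 kb away. At Srrm4, a neuronal splicing regulator, 2 sites shared a null summit of score 22.8, with wild-type H3K4me3 169 kb away from the nearer one. At Tbx3 the null summit scored 6.98 at 136 bp from the site of 10.2, with wild-type H3K4me3 446 kb away. At Gata6 it scored 5.95, with wild-type H3K4me3 326 kb away. At Irx2, in the promoter printed above, it scored 6.95 at 68 bp, with wild-type H3K4me3 11.2 kb away. The Smchd1 site there scored only 2.55, near the lowest score of the list (2.32). In the alpha protocadherin cluster, 1 site near Pcdha7 had a null summit of score 15.6 at 177 bp, with wild-type H3K4me3 46.1 kb away.

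In the Hox clusters, 2 HoxB sites and 1 HoxD site had null Ctcf within 1 kb, and HoxA and HoxC had 0. Near Hoxb5 the null Ctcf summit scored 15.9 at 11 bp, with the nearest wild-type Ctcf 24.3 kb away. In Rbfox3 it scored 16.1 at 7 bp, but wild-type Ctcf lay 1.09 kb away, just past the limit. Near Tcerg1l it scored 11.9 at 37 bp (wild type 606 kb away), in Snrpn 10.4 at 30 bp (101 kb), near the odorant receptor gene Olfr572 10.4 at 13 bp (224 kb) and near Cdh9, a cadherin gene, 10.4 at 59 bp (1121 kb). The null Ctcf list held 11920 summits, and the 2 wild-type lists held 20483 (non-silencing hairpin) and 8292 (untransduced). The null and untransduced lists thus differ in length by more than these 37 sites, and whether list length played a part was not tested. Both null marks stood at 5 sites, near Cntnap5b, Asic2, Foxa1, Tmem200c and Gm51464. Asic2 encodes an acid-sensing ion channel and Foxa1 a forkhead factor. At the site near Cntnap5b, null Ctcf lay 24 bp and null H3K4me3 380 bp away, with wild-type Ctcf 1839.9 kb and wild-type H3K4me3 1642.5 kb away.

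Of the 392 sites, 26 had an excluding wild-type summit at 1 to 2 kb, 8 of them within 250 bp of the limit and 15 within 500 bp. Of the removed sites, 15 lay within 250 bp of the limit and 40 within 500 bp. Just inside were the sites near Cyth4 (Ctcf at 1004 bp) and Kcnk12 (H3K4me3 at 1009 bp). Just outside were those near Marchf11 (999 bp), Spred2 (998 bp) and Gprin1 (989 bp), each with H3K4me3. Of all 392 sites, 275 (70.2%) had no summit of any of the other 6 lists within 1 kb. Those lists were of H3K27me3, MBD, null Ctcf and null H3K4me3. Null Ctcf lay within 1 kb of 62.4% of sites with Ctcf, and null H3K4me3 of 94.9% of sites with H3K4me3. The rule removed both of these groups, so the share of 70.2% was partly set by the rule. The same share was not computed for the other Smchd1 sites, so it is a description only.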

How the data were processed

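Sites are peak summits, 1 bp wide, from 11 lists called with MACS2 version 2 on mm10 after base calling with CASAVA 1.4, per the submitters' processing notes, and no aligner is named in the sources used here. Per the labels, the control of the wild-type Smchd1 list was Smchd1 ChIP from null cells, that of the Ctcf lists was Ctcf ChIP after Ctcf knockdown in wild-type cells, and that of histone marks and MBD was the whole cell extract of each genotype, with replicates pooled. The deposited score is −log10 of either a p-value or a q-value, and which of them is not given. A control with uneven coverage, or a change in depth, alters which summits pass. 0 columns of per-sample values were left unused.

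From these lists, nearest distances, counts and exact binomial intervals were computed in Python 3.11.15 (numpy 2.4.6, pandas 2.3.3, scipy 1.17.1, figures with matplotlib 3.10.9), checked on simulated data. Genes (49939, of which 21883 coding), promoters and miRNAs came from RefSeq on GRCm38.p6, matched by symbol or position. Exons and untranslated regions were not used. The regions and 26 gene lists were chosen with earlier results of these data known. Named genes are those nearest to the 20 highest sites, listed genes within 20 kb of a site, genes with 3 or more sites, genes of gatherings and genes at H3K27me3, at most 40 by score. Other names were chosen after their values were seen. Alternatives changed the limit, the list, the merging of summits and the neighbour distance. Some sites chosen by this rule are not reported here.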

Additional observations from a re-analysis of the deposited data

Results flagged for a closer look

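Some Smchd1 summits stood on unplaced contigs, outside the data compared above. The list called at 5e-3 held 8 of them, and the list called at 5e-4 held 3. Whether Ctcf or H3K4me3 summits lay beside them was not analysed here.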

How the results depend on the processing

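Of 93 recomputed values, 76 moved by less than the counting interval of the value reported (counts by less than 1.5 times) and 17 moved further. The number of sites was 139 with the list called at 5e-4, against 392, and 432, 366 and 316 with limits of 500 bp, 2 kb and 5 kb. With a 500 bp limit, null H3K4me3 lay at 14.6% of sites, against 7.91%. Null H3K27me3 fell to 0% with limits of 2 kb or 5 kb, with the list at 5e-4 and with neighbour scores of at least 5. Wild-type H3K27me3 fell to 2.53% with a limit of 5 kb. Counting neighbours within 5 kb gave 4.85% for null and 11.5% for wild-type H3K27me3, 32.4% and 37.0% for MBD (lists named D1 and WT), 18.4% for null Ctcf and 14.8% for null H3K4me3. Counting them within 500 bp gave 3.06% and 4.34% for MBD. A gene end lay within 5 kb of 38.0% of sites, and 57.1% were inside any annotated gene. No paired analysis was possible because each list pools the replicates of its group, and for the same reason no replicate could be left out. Shares of null marks could not be computed where null lists also removed sites (329 left), nor the chromosome 13 count without that window. Depth per library is unknown, so a missing summit shows only that none passed the threshold.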

Other observations

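Of 1005 miRNA hairpin genes, 8 lay within 20 kb of a site with neither mark, a search made after values were seen, and 16 lay within 20 kb of any Smchd1 site. Of the 392 sites, 22 (5.61%) had a hairpin gene within 20 kb, against 4.07% of sites with Ctcf, 1.36% of sites with H3K4me3 and 3.89% of all. Of the 8 hairpins, 5 are in the Hox clusters, which hold 38 of the 392 sites. Most of the 22 sites lay near these 5 hairpins, so the share largely repeats that of Hox sites. The 3 hairpins within 5 kb of a site were Mir196b (1373 bp), Mir196a-2 (2401 bp) and Mir196a-1 (3399 bp). The other 2 Hox hairpins were Mir10a (5404 bp) and Mir10b (13836 bp). Their mature sequences, from RefSeq on GRCm38.p6, form 2 families by seed, here the capital bases 2 to 8 from the 5′ end, and miR-196a-5p comes from both Mir196a genes.
miR-196a-5p: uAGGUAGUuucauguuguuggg
miR-196b-5p: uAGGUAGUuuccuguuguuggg
miR-10a-5p: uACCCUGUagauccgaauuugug
miR-10b-5p: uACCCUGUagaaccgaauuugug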
